A study of Mus musculus and Rattus norvegicus with 30 samples.

Results

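The 7 genes described here encode voltage-gated sodium channel alpha subunits expressed in sensory neurons: Scn1a, Scn2a, Scn3a, Scn8a, Scn9a, Scn10a and Scn11a. They were picked by gene symbol, ignoring case, from the features of a mouse and a rat count table of dorsal root ganglion (DRG), 7 of 54315 mouse features and 7 of 39281 rat features. All 7 had counts in every library of both species and all passed the filter on low counts.

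RNA sequencing was performed on DRG after a peripheral nerve injury used as a model of neuropathic pain, and on DRG after sham surgery. Adult mice of the inbred strains BALB/c and B10.D2, of both sexes, had spared nerve injury (SNI), which severs 2 branches of the sciatic nerve, the common peroneal and the sural, and keeps the tibial branch intact. L3 and L4 DRG of 1 animal made each library at day 28, and the ribodepleted fraction was sequenced. Male Wistar rats had ligation and transection of the L5 spinal nerve (SNT), the L5 DRG of 3 rats were pooled in each library at day 21, and polyadenylated RNA was sequenced. There were 6 BALB/c sham libraries (3 male, 3 female), 4 BALB/c SNI (2 and 2), 5 B10.D2 sham (3 male, 2 female), 5 B10.D2 SNI (2 male, 3 female), 4 rat sham and 4 rat SNT. Sham surgery uncovered the same nerves in each species without injuring them. L3 and L4 DRG also hold neurons whose axons run in the spared branch, so an SNI library mixes injured and uninjured neurons, whereas transection of the L5 spinal nerve cuts the axons of L5 neurons close to the ganglion.

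The alpha subunit forms the pore of the sodium channel and by itself carries the current of the action potential's rising phase. Tetrodotoxin, a toxin that plugs the outer mouth of the pore, blocks the channels Nav1.1 (Scn1a), Nav1.2 (Scn2a), Nav1.3 (Scn3a), Nav1.6 (Scn8a) and Nav1.7 (Scn9a) at low concentrations, whereas Nav1.8 (Scn10a) and Nav1.9 (Scn11a) are resistant. In sensory ganglia, Nav1.1 and Nav1.6 are known mainly from myelinated A-fibre neurons, Nav1.7 from most nociceptors, and Nav1.8 and Nav1.9 from small-diameter nociceptors, while Nav1.3 is known from embryonic neurons and Nav1.2 mainly from the brain.

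The division into tetrodotoxin-sensitive and tetrodotoxin-resistant channels used below can be read in the genes themselves, at 1 codon of the outer pore of the first domain, and the stretches are shown for that reason. Each line gives 30 bases of coding sequence from the mouse genome (mm10), 5′ to 3′ on the gene's own strand. Capitals mark the codon at the site that sets tetrodotoxin sensitivity. The 6 stretches shown lie in exon 9 of the transcript read, counted from its 5′ end.
Scn10a: atgacgcaggacTCCtgggaacggctgtac
Scn11a: atgactcaagacTCCtgggagaagctttat
Scn2a: atgactcaagacTTCtgggaaaacctttat
Scn3a: atgactcaagacTACtgggagaacctttac
Scn8a: atgactcaggacTACtgggagaacttatac
Scn9a: atgactcaggacTACtgggagaacctttat
On the minus strand, the stretches are at chr9:119666372-119666401 for Scn10a, chr9:119805665-119805694 for Scn11a, chr2:65521798-65521827 for Scn3a, chr2:66548986-66549015 for Scn9a. On the plus strand, they are at chr2:65688424-65688453 for Scn2a and chr15:100971626-100971655 for Scn8a. Both resistant subunits carry TCC, whereas the sensitive subunits shown carry TTC (Scn2a) or TAC (Scn3a, Scn8a and Scn9a).

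The genes sit in clusters. On mouse chromosome 2, Scn3a (65457118 to 65567627), Scn2a (65620771 to 65767447), Scn1a (66270778 to 66440840) and Scn9a (66480080 to 66634962) follow each other, with Scn2a alone on the plus strand. On chromosome 9, Scn10a (119608456 to 119719322) and Scn11a (119753759 to 119825456) are neighbours on the minus strand. Scn8a lies by itself on chromosome 15 (100869858 to 101045938, plus strand). The alpha subunits resemble each other in sequence, but of all runs of 100 bases in a member's transcripts the share found in another alpha subunit was 2.22% for Scn3a, 1.44% for Scn9a, 1.03% for Scn2a and 0.876% for Scn1a, and there was none for Scn8a, Scn10a and Scn11a. Of runs of 50 bases the share was between 0.0374% (Scn8a) and 6.49% (Scn3a), with none for Scn11a.

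Library totals were 29989963 to 41881331 read pairs in mouse and 11954612 to 17887909 in rat. The lowest count of any member was 405 in mouse (Scn3a) and 185 in rat (Scn11a). The labelled tissue carried its markers: the 12 pan-neuronal markers summed to 7632 CPM (counts scaled to a common library total) or more in every mouse library. The nerve injury markers rose as a group, 12 of 12 after BALB/c SNI, 11 of 12 after B10.D2 SNI and 7 of the 8 tested in rat. Of all features, 9.69%, 4.58% and 27.4% were called in these comparisons, in either direction. The lists were chosen with earlier results of these data known, so these counts are no independent check. Levels below are CPM on library totals scaled by the trimmed mean of M-values (TMM), and changes are log2 fold changes from edgeR's quasi-likelihood test with Benjamini-Hochberg adjustment over all features tested, called at an adjusted p under 0.05. The spread between libraries is that of single mice, or of pools of 3 rats.

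Per kilobase of exon, the nociceptor subunits were the most abundant of the 7 members in uninjured mouse DRG. In BALB/c sham libraries, Scn10a stood at 119.2 ± 13.7 CPM per kilobase (SD, n = 6) and Scn11a at 97.6 ± 11.2. Scn9a followed at 59.3 ± 6.6. Scn1a, at 27.6 ± 2.3, was above Scn8a, at 18.3 ± 1.0. Scn2a and Scn3a were lowest, with 3.10 ± 0.17 and 1.14 ± 0.20 CPM per kilobase. B10.D2 sham libraries had the same order, with 111.8 for Scn10a, 103.5 for Scn11a and 64.4 for Scn9a. From Scn11a downwards, over the union of exons, no member's range overlapped that of its neighbour in any of the 4 mouse groups, whereas with the length of the longest transcript the ranges of Scn11a and Scn9a overlapped in BALB/c sham. The ranges of Scn10a and Scn11a overlapped in both sham groups, although Scn10a was the higher of the pair in 6 of 6 BALB/c and 5 of 5 B10.D2 sham libraries. After B10.D2 SNI the order of the pair by mean was turned, with 106.8 CPM per kilobase for Scn11a and 104.8 for Scn10a, overlapping ranges, and Scn11a the higher in 3 of 5 libraries. Scn10a kept the first place there when the length of the longest transcript was used.

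The composition of the alpha subunits shifted little after SNI. Of the summed level per kilobase, Scn10a made up 36.5% in BALB/c sham, 36.4% in BALB/c SNI, 34.1% in B10.D2 sham and 33.6% in B10.D2 SNI libraries, by mean. Scn11a made up 29.9%, 32.4%, 31.6% and 34.3% in the same order. The 2 tetrodotoxin-resistant subunits together held 66.3% ± 2.1, 68.8% ± 0.35, 65.7% ± 0.86 and 67.9% ± 0.89 (SD, n = 6, 4, 5 and 5). Scn1a went from 8.55% to 6.47% in BALB/c and from 8.04% to 6.03% in B10.D2, and its B10.D2 ranges did not overlap. Scn8a went from 5.64% to 4.62% and from 5.30% to 4.19%. Since shares sum to a fixed total, a smaller share of 1 subunit enlarges the others, and no test was made on them.

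**Figure D1:**
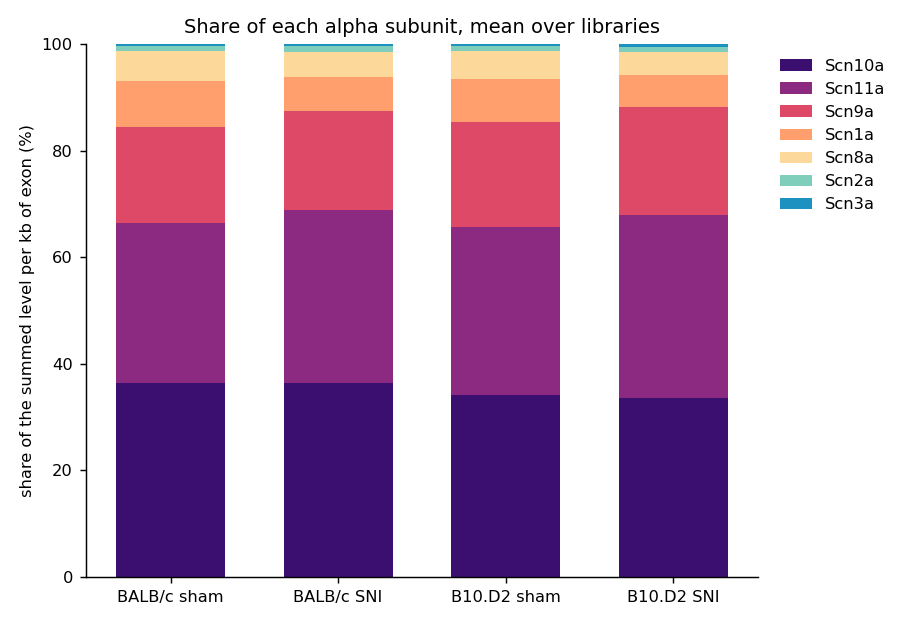
Share of each alpha subunit in the summed level of the 7 members per kilobase of exon, as a percentage (vertical axis), mean over the libraries of each of the 4 mouse groups (stacked bars). Scn10a and Scn11a together fill between 65.7% and 68.8% of each bar, and the Scn1a segment is smaller in both SNI groups than in the sham groups.

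Whether injury changed the members was asked first in mouse. Scn1a and Scn8a, the subunits known from A-fibre neurons, were lower after SNI in both strains. The other 5 were not called in either strain, Scn3a alone having a higher mean after SNI in both. That is 2 of 7 members called in BALB/c, against 9.69% of all features, and 2 of 7 in B10.D2, against 4.58%. The median log2 fold change of the members was -0.14 in BALB/c and -0.02 in B10.D2, beside 0.00 and 0.01 over all features. In bulk ganglion, fewer cells of a type and less RNA per cell cannot be told apart.

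Scn1a, which encodes Nav1.1, had 276.8 CPM in the lowest, 308.5 in the median and 342.6 in the highest BALB/c sham library, and 194.1, 195.3, 208.6 and 234.1 CPM in the 4 BALB/c SNI libraries. In B10.D2 it had 273.1, 274.1, 285.0, 302.9 and 330.7 CPM after sham surgery and 188.0, 204.6, 205.9, 215.0 and 234.5 CPM after SNI. Every SNI library was below every sham library of its strain, and the sham ranges of the strains overlapped. Scn1a fell by 0.57 on the log2 scale in BALB/c (SE 0.056, 95% interval -0.68 to -0.45, adjusted p = 8.4e-07 by edgeR), a 32.5% lower level by the fit. In B10.D2 it fell by 0.45 (SE 0.054, interval -0.57 to -0.34, adjusted p = 3.0e-05 by edgeR).

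Scn8a encodes Nav1.6, the main sodium channel of the nodes of Ranvier. It had 271.9, 283.7 and 309.8 CPM in the lowest, median and highest BALB/c sham library, and 171.0, 203.8, 230.8 and 235.6 CPM after SNI. The groups did not overlap in BALB/c. In B10.D2 the levels were 226.8, 233.4, 270.0, 317.8 and 321.7 CPM after sham surgery and 170.7, 204.3, 205.4, 214.4 and 231.7 CPM after SNI, so the highest SNI library lay above the lowest sham library. Scn8a fell by 0.47 in BALB/c (SE 0.096, interval -0.67 to -0.27, adjusted p = 0.0027 by edgeR) and by 0.39 in B10.D2 (SE 0.093, interval -0.58 to -0.19, adjusted p = 0.018 by edgeR). The B10.D2 call was lost without sham library 58, 60 or 67 (adjusted p 0.057, 0.053 and 0.054) and when libraries were scaled to the pan-neuronal markers (0.053).

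Scn3a, the embryonic subunit Nav1.3, was the scarcest. In BALB/c it had 11.6, 13.3 and 17.6 CPM in the lowest, median and highest sham library and 13.1, 16.5, 17.0 and 18.7 CPM after SNI, and the groups overlapped. The B10.D2 values were 12.7, 13.1, 15.2, 16.3 and 16.6 CPM after sham surgery and 17.2, 17.9, 18.2, 20.5 and 20.7 CPM after SNI. The B10.D2 groups were separate, as they were for 5.18% of all features in that strain, where Scn1a and Scn3a were the 2 of 7 members without overlap. In BALB/c, 2 of 7 members had groups that did not overlap (Scn1a and Scn8a), against 8.61% of all features. The log2 fold change of Scn3a was 0.34 in B10.D2 (SE 0.11, interval 0.10 to 0.57, adjusted p = 0.097 by edgeR), and 0.20 in BALB/c (interval -0.04 to 0.44, adjusted p = 0.32 by edgeR). The B10.D2 value passed the threshold with DESeq2 (adjusted p = 0.047) and with scaling to the pan-neuronal markers by edgeR (0.044).

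Scn9a encodes Nav1.7, which amplifies small depolarizations in nociceptors and whose loss abolishes pain in humans. It had 662.1, 731.9 and 879.4 CPM in the lowest, median and highest BALB/c sham library, and 647.7, 675.7, 708.3 and 714.7 CPM after SNI. In B10.D2 it had 751.8, 813.3, 816.2, 859.2 and 871.7 CPM after sham surgery and 721.3, 793.1, 808.8, 851.3 and 872.7 CPM after SNI. Sham and SNI ranges overlapped in both strains. The change was -0.14 in BALB/c (SE 0.071, interval -0.29 to 0.01, adjusted p = 0.24 by edgeR) and -0.02 in B10.D2 (interval -0.16 to 0.13, adjusted p = 0.94 by edgeR).

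Scn10a encodes Nav1.8, which carries most of the inward current of the nociceptor's action potential. It had 812.6, 923.3 and 1108.1 CPM in the lowest, median and highest BALB/c sham library and 804.3, 808.5, 832.5 and 899.2 CPM after SNI. Its B10.D2 levels were 847.6, 849.8, 907.9, 908.3 and 939.6 CPM after sham surgery and 747.6, 821.8, 851.7, 866.5 and 884.8 CPM after SNI. The groups overlapped in both strains, and B10.D2 SNI library 69, at 747.6 CPM, lay below all sham libraries of its strain. The change was -0.18 in BALB/c (SE 0.071, interval -0.33 to -0.04, adjusted p = 0.11 by edgeR) and -0.09 in B10.D2 (interval -0.24 to 0.05, adjusted p = 0.57 by edgeR). Without BALB/c sham library 50, the lowest of its group, the BALB/c value was -0.24 and was called (adjusted p = 0.020 by edgeR).

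Scn11a encodes Nav1.9, a persistent current near the resting potential of nociceptors. It had 504.0, 576.3 and 684.8 CPM in the lowest, median and highest BALB/c sham library and 545.3, 550.3, 557.1 and 561.7 CPM after SNI. In B10.D2 it had 567.0, 585.2, 616.3, 642.7 and 659.5 CPM after sham surgery and 584.8, 586.1, 651.1, 667.8 and 677.7 CPM after SNI. All 4 BALB/c SNI libraries lay inside the sham range. The change was -0.06 in BALB/c (interval -0.21 to 0.08, adjusted p = 0.64 by edgeR) and 0.03 in B10.D2 (interval -0.11 to 0.17, adjusted p = 0.88 by edgeR).

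Scn2a, the brain subunit Nav1.2, had 37.5, 38.3 and 42.5 CPM in the lowest, median and highest BALB/c sham library and 36.4, 37.8, 39.3 and 39.4 CPM after SNI. Its levels in B10.D2 were 36.8, 40.3, 41.9, 42.6 and 45.3 CPM after sham surgery and 41.4, 42.5, 42.5, 46.0 and 46.4 CPM after SNI. Groups overlapped in both strains, and the changes were -0.04 (interval -0.16 to 0.07, adjusted p = 0.69 by edgeR) and 0.07 (interval -0.04 to 0.18, adjusted p = 0.56 by edgeR).

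**Figure D2:**
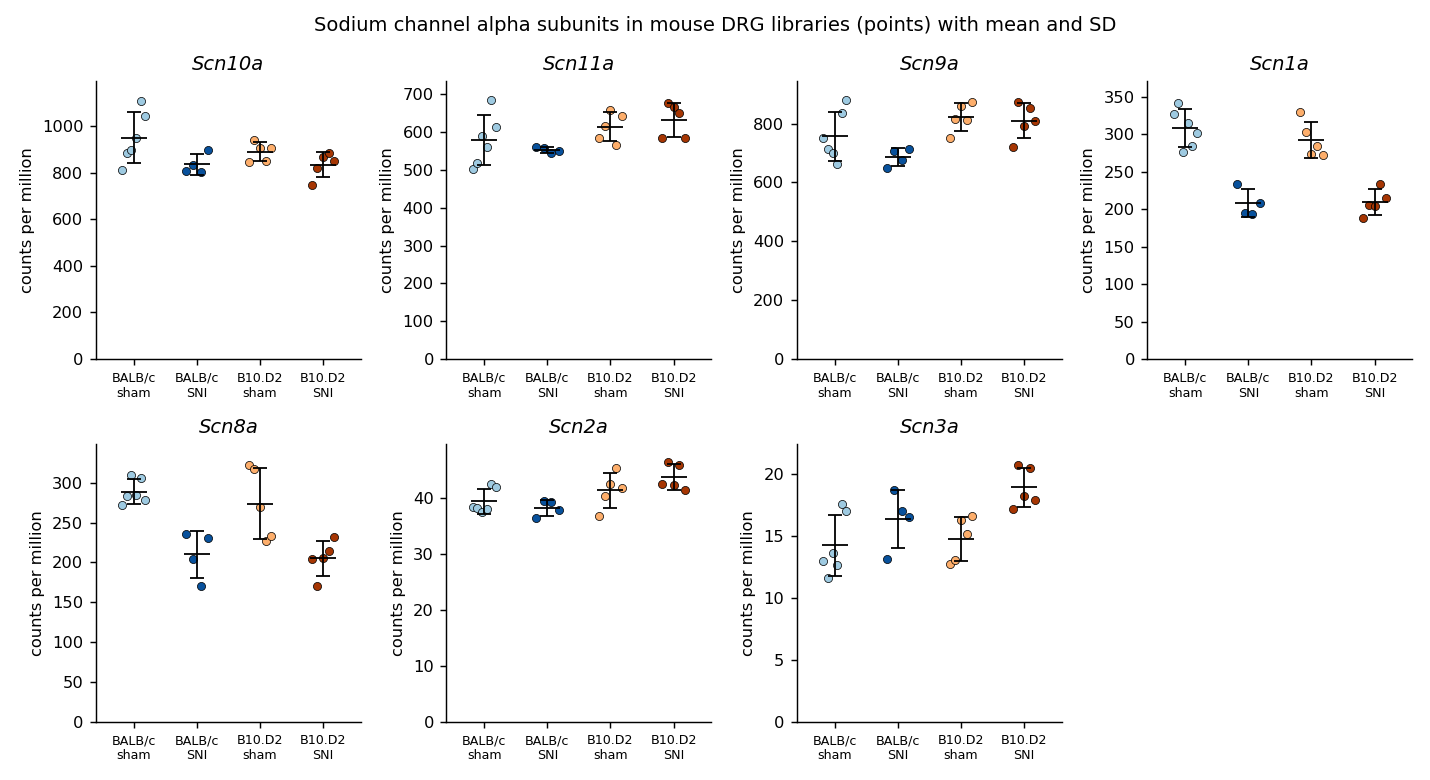
Level of each alpha subunit in every mouse library (CPM, vertical axes from 0, a panel for each gene) in the 4 groups on the horizontal axis; points are libraries, and the bar with whiskers is the mean with its SD. The SNI points of Scn1a lie below all sham points in both strains, whereas the sham and SNI points of Scn9a, Scn10a, Scn11a and Scn2a overlap.

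The design also asks whether the strains differ in their response. The interaction of strain and injury was not called for any of the 7 members by edgeR, none had an unadjusted p under 0.05, and DESeq2 called none either. Only 0.0243% of all features had a called interaction, 6 in number. The difference in log2 fold change, B10.D2 minus BALB/c, was between 0.08 (Scn8a, interval -0.20 to 0.36) and 0.14 (Scn3a, interval -0.19 to 0.47). For Scn1a it was 0.11, with an interval of -0.05 to 0.27.

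Between the strains, none of the 7 members was called in sham ganglia by edgeR, with none at an unadjusted p under 0.05 and none by DESeq2, against 21.6% of all features. The differences, B10.D2 over BALB/c, were between -0.10 (Scn8a, interval -0.28 to 0.09) and 0.12 (Scn9a, interval -0.02 to 0.26). After SNI, 2 of 7 members were called, against 20.9% of all features. Both were higher in B10.D2: Scn9a by 0.24 (SE 0.074, interval 0.09 to 0.39, adjusted p = 0.024 by edgeR) and Scn2a by 0.19 (SE 0.056, interval 0.07 to 0.31, adjusted p = 0.018 by edgeR). The 5 B10.D2 SNI libraries were above the 4 BALB/c SNI libraries for each of these genes, by a narrow margin. The lowest B10.D2 and highest BALB/c SNI libraries had 721.3 and 714.7 CPM of Scn9a, and 41.4 and 39.4 CPM of Scn2a. The share of all features separated in this way between the strains was not computed. Neither call stood without BALB/c SNI library 49 (Scn9a 0.21, adjusted p = 0.087 by edgeR; Scn2a 0.18, adjusted p = 0.059). Without B10.D2 SNI library 76 or BALB/c SNI library 65, the call of Scn9a was lost as well (adjusted p 0.065 and 0.056). Scn11a was at 0.19 (adjusted p = 0.068 by edgeR), and it was called in 5 alternatives, with no low count filter and without BALB/c sham library 50 or 57, B10.D2 sham library 77 or B10.D2 SNI library 69 (adjusted p 0.033 to 0.048). That the strains differed after SNI and not after sham surgery is not shown by these values, since the interaction was not called.

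No member was called between the sexes by edgeR, against 0.243% of all features, 60 in number. Scn1a alone had an unadjusted p under 0.05, with a log2 difference of -0.15, female over male (SE 0.038, interval -0.23 to -0.07, adjusted p = 0.11 by edgeR), and DESeq2 called it (adjusted p = 0.027). With scaling to the pan-neuronal markers Scn1a was at -0.07 (adjusted p = 0.32 by edgeR), and Scn2a was the member called (0.14, adjusted p = 0.041). The other 6 lay between -0.14 (Scn8a) and 0.11 (Scn3a).

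In rat, 2 libraries stood apart from their groups before any member was considered. On the first principal component of all features, which held 72.5% of the variance, the fourth sham and the first SNT library took places between the groups (sham library 4 and SNT library 1). Nerve injury markers moved with this: 8 of them summed to 307.5, 343.4 and 305.8 CPM in sham libraries 1 to 3 and to 767.0 CPM in sham library 4, and to 1039.8 CPM in SNT library 1 against 1159.0 to 1521.6 CPM in the other SNT libraries. The rat values of the members and the counts of the lists are therefore also given without these 2 libraries, an alternative chosen after seeing the data. Whether the 2 libraries differ in surgery, dissection or RNA was not tested.

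All 7 members were called after SNT by edgeR, against 27.4% of all features. Scn1a, Scn2a, Scn8a, Scn9a, Scn10a and Scn11a fell and Scn3a rose. The median log2 fold change was -1.71, beside 0.00 over all features, and 6 of 7 members had groups that did not overlap, against 26.5% of features. Without sham library 4 and SNT library 1 all 7 were again called, against 43.9% of features. Since these libraries were picked for lying between the groups, leaving them out widens the differences. The values without them are therefore no separate check of the calls. Leaving out 1 library at a time, the number of members called was between 3 and 7: it was 3 without sham library 1 or 3, and 4 without sham library 2, SNT library 2 or SNT library 4. Scn1a, Scn8a and Scn9a were called in every alternative run.

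The resistant subunits of nociceptors showed the widest span. Scn11a had 319.1, 564.0, 478.7 and 253.6 CPM in sham libraries 1 to 4 and 182.4, 15.0, 10.3 and 38.9 CPM in SNT libraries 1 to 4. All SNT libraries were below all sham libraries, and SNT library 1 was 17.7 times the lowest of its own group. Scn11a fell by 2.71 on the log2 scale (SE 0.80, interval -4.50 to -0.92, adjusted p = 0.033 by edgeR), and its value was -4.40 without the 2 libraries (adjusted p = 1.1e-04). Its call was lost when any single library other than sham 4 or SNT 1 was left out (adjusted p 0.057 to 0.084).

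Scn10a had 513.5, 863.1, 735.6 and 417.4 CPM in sham libraries 1 to 4, and 325.6, 55.4, 28.8 and 133.2 CPM in SNT libraries 1 to 4. The groups were separate, with SNT library 1 again highest and 11.3 times the lowest. Scn10a fell by 2.22 (SE 0.64, interval -3.64 to -0.81, adjusted p = 0.030 by edgeR) and its value was -3.27 without the 2 libraries (adjusted p = 6.2e-04). It was no longer called without sham library 1, 2 or 3 or SNT library 2 or 4 (adjusted p 0.057 to 0.075).

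Of the sensitive subunits, Scn1a had 359.7, 488.1, 423.0 and 267.8 CPM in sham libraries 1 to 4 and 181.5, 48.9, 63.6 and 84.8 CPM in SNT libraries 1 to 4. The lowest sham library was sham 4, the highest SNT library was SNT 1, and the groups did not overlap. Scn1a fell by 2.02 (SE 0.38, interval -2.87 to -1.18, adjusted p = 0.011 by edgeR), and its value was -2.67 without the 2 libraries (adjusted p = 2.3e-05).

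Scn8a followed the same order of libraries, with 281.7, 431.8, 367.1 and 227.7 CPM in sham libraries 1 to 4 and 157.2, 61.7, 67.5 and 114.2 CPM in SNT libraries 1 to 4. It fell by 1.71 (SE 0.31, interval -2.41 to -1.01, adjusted p = 0.011 by edgeR), and its value was -2.14 without the 2 libraries (adjusted p = 1.8e-04). No SNT library reached the lowest sham library.

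Scn9a had 924.5, 1124.9, 1117.9 and 769.8 CPM in sham libraries 1 to 4, and 644.9, 337.8, 324.5 and 491.7 CPM in SNT libraries 1 to 4. The groups were separate, and the highest SNT library was 1.99 times the lowest, a narrower spread than that of the resistant subunits. Scn9a fell by 1.13 (SE 0.23, interval -1.65 to -0.61, adjusted p = 0.013 by edgeR), and its value was -1.44 without the 2 libraries (adjusted p = 3.1e-04).

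Scn2a had 55.1, 46.5, 47.7 and 47.2 CPM in sham libraries 1 to 4 and 39.4, 34.7, 30.3 and 38.2 CPM in SNT libraries 1 to 4. All SNT libraries were below the sham libraries, and sham library 4 was not set apart here. The decrease was the smallest of the 6, -0.46 (SE 0.11, interval -0.72 to -0.21, adjusted p = 0.018 by edgeR), and -0.51 without the 2 libraries (adjusted p = 0.0094). The call was lost without sham library 1 or 3 or SNT library 2 or 3 (adjusted p 0.051 to 0.057), and with scaling to the pan-neuronal markers (0.086).

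Scn3a, the embryonic subunit, was the member that rose. It had 48.8, 52.8, 49.6 and 78.4 CPM in sham libraries 1 to 4 and 88.1, 74.9, 81.1 and 110.3 CPM in SNT libraries 1 to 4. Sham library 4 lay above SNT library 2, so the groups overlapped by this library. Scn3a rose by 0.62 (SE 0.18, interval 0.23 to 1.02, adjusted p = 0.029 by edgeR), and its value was 0.83 without the 2 libraries (adjusted p = 0.0016). It was not called without sham library 1, 2 or 3 or SNT library 4 (adjusted p 0.067 to 0.087), or with scaling to the pan-neuronal markers (0.062).

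**Figure D3:**
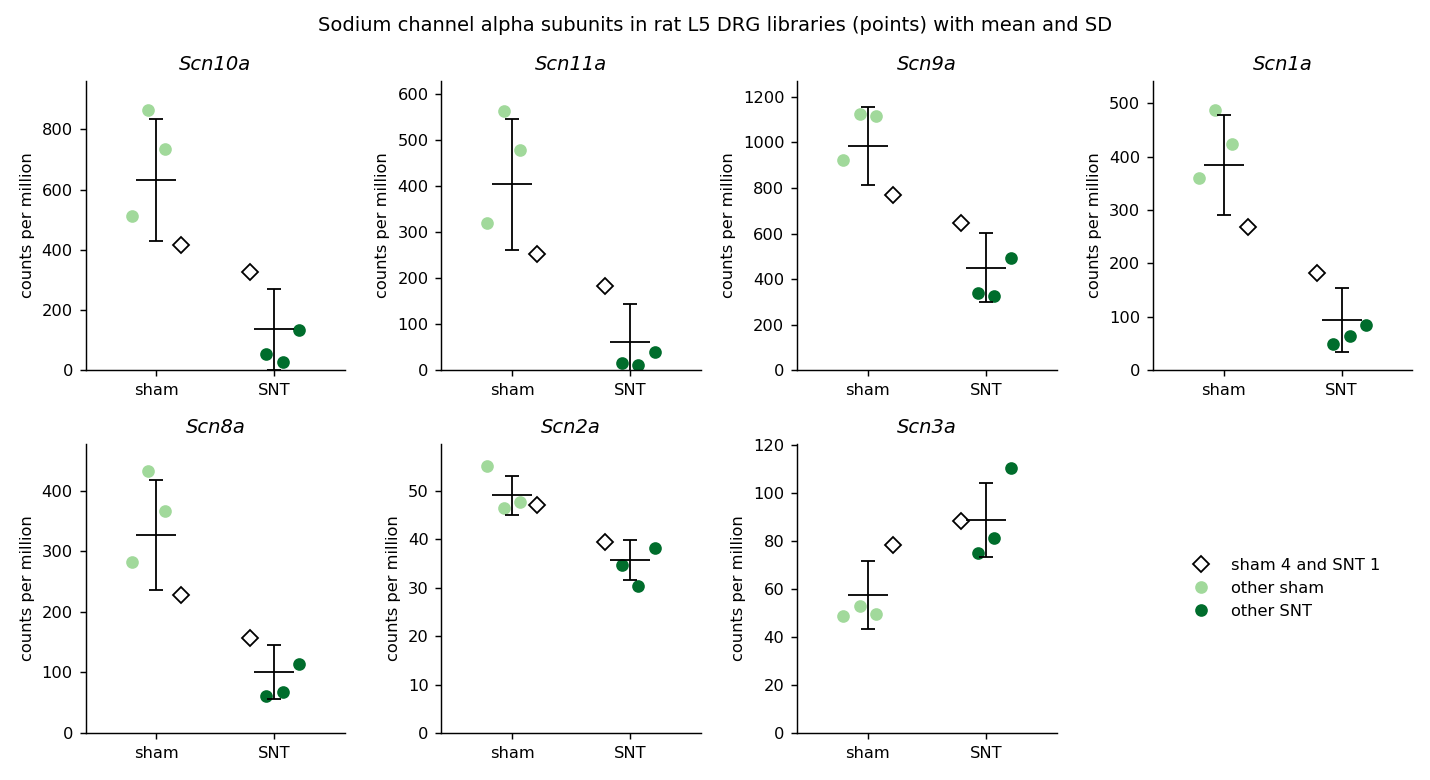
Level of each alpha subunit in every rat library (CPM, vertical axes from 0, a panel for each gene) in the sham and SNT groups; points are libraries of 3 pooled rats, and the bar with whiskers is the mean with its SD, cut at 0 where it would pass below. Sham library 4 and SNT library 1 are marked, and they are the sham and SNT points nearest to the other group in the panels of Scn1a, Scn8a, Scn9a, Scn10a and Scn11a.

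Set side by side, the members differed in size of change between the species. Scn11a had -0.06 in BALB/c, 0.03 in B10.D2 and -2.71 in rat, and Scn10a had -0.18, -0.09 and -2.22. Scn1a had -0.57, -0.45 and -2.02, and Scn8a -0.47, -0.39 and -1.71. Scn3a had a positive value in each, 0.20, 0.34 and 0.62. Species, kind of injury, ganglion, day, pooling and RNA fraction all differ between the mouse and rat libraries and cannot be told apart, and no test was made across them. The 2 mouse comparisons use separate animals and share the fit.

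**Figure D4:**
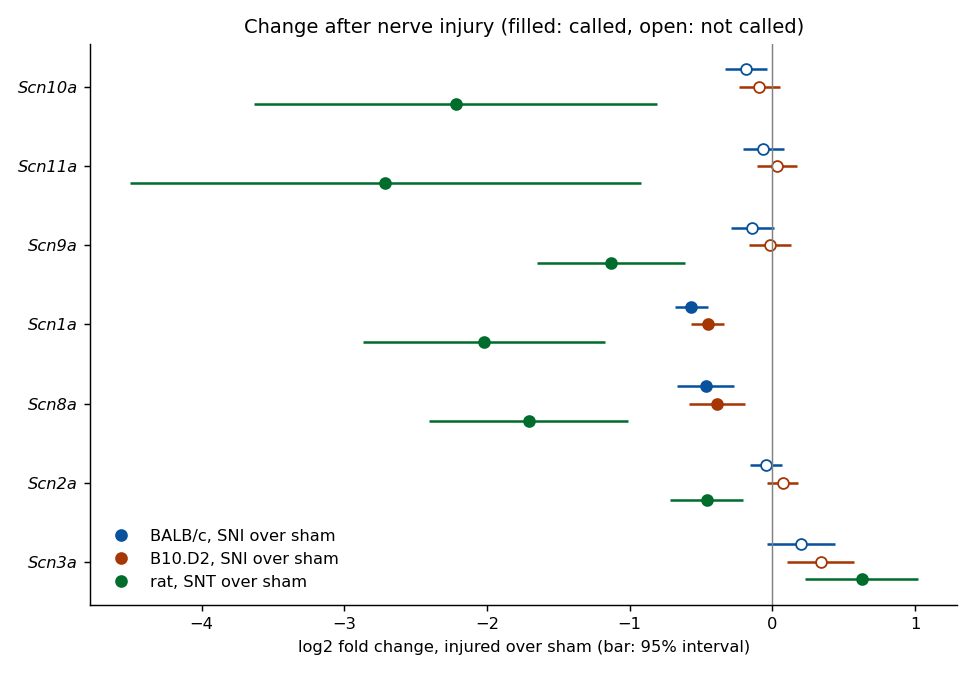
Log2 fold change of each alpha subunit (horizontal axis, 0 marks no change) after SNI in BALB/c, after SNI in B10.D2 and after SNT in rat; points are edgeR estimates and bars their 95% intervals. The 2 mouse intervals of Scn1a and of Scn8a lie below 0, and the rat intervals lie below 0 for the 6 members that fell and above 0 for Scn3a.

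Some lists of cell type markers also changed after injury and others did not, and their part in the values of the members was not tested. The A-fibre neuron markers, 12 genes such as the neurofilament gene Nefh, summed to 9201 to 10407 CPM in BALB/c sham and 6587 to 7986 CPM in BALB/c SNI libraries, and to 9030 to 11089 and 6291 to 8303 CPM in B10.D2. In BALB/c 8 of 12 were called, against 9.69% of all features, each lower. Pvalb, a calcium-binding protein of proprioceptors, was at -0.95 (adjusted p = 0.032 by edgeR) and Nefh at -0.70 (adjusted p = 4.8e-06). In B10.D2 6 of 12 were called, against 4.58% of all features, each lower, with Pvalb at -1.26 (adjusted p = 0.0085 by edgeR) and Nefh at -0.50 (adjusted p = 3.6e-04). The number called in B10.D2 was 3 without any of 5 libraries (sham 58, 60 and 67, SNI 69 and 76). Scn1a and Scn8a thus changed beside A-fibre markers whose median change was -0.37 in BALB/c and -0.28 in B10.D2. Of the 9 nonpeptidergic C-fibre markers none was called in either mouse strain by edgeR, with 1 at an unadjusted p under 0.05 in each. Their summed level was 863 to 1117 CPM in BALB/c sham (mean 965) and 890 to 927 CPM in BALB/c SNI libraries (mean 902). In B10.D2 it was 893 to 999 CPM after sham surgery (mean 959) and 881 to 982 CPM after SNI (mean 941).

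In rat, 27.4% of all features were called after SNT, and 43.9% without sham library 4 and SNT library 1. The marker counts below stand beside these shares. The 6 A-fibre markers tested were all lower after SNT, led by Pvalb at -3.11 (SE 0.81, adjusted p = 0.022 by edgeR) and Cacng2, an AMPA receptor auxiliary subunit, at -1.81 (SE 0.41, adjusted p = 0.015). Their summed level went from 1489 to 2539 CPM in sham to 814 to 1243 CPM in SNT libraries. The number called was 3 without sham library 3, SNT library 3 or SNT library 4, and without both sham library 4 and SNT library 1 all 6 were again lower, with Pvalb at -4.93. Of 6 nonpeptidergic C-fibre markers tested, 5 were lower, led by the receptors Mrgprb4 at -3.69 (adjusted p = 0.025 by edgeR) and Mrgprd at -3.12 (adjusted p = 0.044), beside which Scn10a and Scn11a fell, and without the 2 libraries 5 were again lower, with Mrgprd at -6.67. The summed pan-neuronal markers were at 6484 to 8871 CPM in sham and 6213 to 9390 CPM in SNT libraries, ranges that coincide, with 3 of 8 called, each lower: Map2, at -0.74 (adjusted p = 0.013 by edgeR), Elavl4, at -0.71 (adjusted p = 0.025), and Syt1. Without the 2 libraries 4 of 8 were called, each lower.

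The partners of the channel were examined as lists. Beta subunits are small transmembrane proteins that bind alpha subunits and tune their gating and surface level. Of 4, 2 were called after SNI in each strain, both lower, Scn4b among them. Of all features, 9.69% were called in BALB/c and 4.58% in B10.D2. Scn4b had a mean of 418 CPM in BALB/c sham and 328 in BALB/c SNI libraries (-0.36, adjusted p = 0.0048 by edgeR), and 341 and 257 CPM in B10.D2 (-0.38, adjusted p = 0.0052). In rat, 1 of 4 was called, against 27.4% of all features. It was Scn4b, with 792 CPM in sham and 451 in SNT libraries (-0.81, adjusted p = 0.029 by edgeR). Without the 2 libraries 3 of 4 were called, against 43.9% of features, 2 lower and 1 higher, with Scn4b at -1.07.

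Of the 4 FGF homologous factors, intracellular proteins that bind the channel's C-terminal tail, Fgf12 was called after SNI, at -0.26 in each strain (adjusted p 0.015 and 0.022 by edgeR). The share of all features called was 9.69% in BALB/c and 4.58% in B10.D2. In rat, 1 of the 4 had counts, Fgf13, which fell by 1.16 (SE 0.37, adjusted p = 0.042 by edgeR), and its value was -1.77 without the 2 libraries (adjusted p = 3.3e-04). Of 3 further alpha subunits, Scn4a, the skeletal muscle channel, was lower after SNI in both strains, from 9.55 to 5.86 CPM in BALB/c (-0.71, adjusted p = 1.7e-04 by edgeR) and from 7.37 to 5.54 CPM in B10.D2 (-0.38, adjusted p = 0.047). None of 6 skeletal muscle markers was called by edgeR in either strain, and none had an unadjusted p under 0.05, but their sum spanned 10.3 to 1383 CPM within BALB/c sham libraries.

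Among 21 genes that anchor, traffic or degrade sodium channels, 7 were called after BALB/c SNI, against 9.69% of all features, 5 lower and 2 higher. Cntn1, an adhesion molecule that binds the channel at the axon surface, went from 595 to 440 CPM (-0.43, adjusted p = 9.1e-06 by edgeR), and Map1b, a microtubule-associated protein, fell by 0.34 (adjusted p = 0.0035). S100a10, which brings Nav1.8 to the membrane, rose by 0.24 (adjusted p = 0.0045) and the kinase gene Mapk14 by 0.13 (adjusted p = 0.030). In B10.D2, 4 of 21 were called, against 4.58% of all features, each lower, with Cntn1 at -0.33 (adjusted p = 2.8e-04). In rat 3 of the 11 tested were called, against 27.4% of all features, each lower, Map1b, Cntn1 and Nrcam, the last an adhesion molecule of the node, at -0.74 (SE 0.15, adjusted p = 0.013). Without the 2 libraries 5 of 11 were called, each lower, against 43.9% of features. Over all lists of partners in rat, 6 genes were called with all libraries, 2 without sham library 2 or 3 or SNT library 2 or 4, 3 without SNT library 3 and 10 without both sham library 4 and SNT library 1.

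Long noncoding RNAs (LncRNAs) at the members' loci, annotated or assembled by the authors, were found by coordinates, within 10 kilobases of a member or overlapping it. There were 11 in mouse. Gm13595 had no counts and LncRNA410 did not pass the filter on low counts, so neither was tested. Of those tested, Gm13629 was the only one called after SNI. The share of all features called was 9.69% in BALB/c and 4.58% in B10.D2. It lies at chr2:66440880-66546026 on the plus strand, begins 40 bases beyond the start of Scn1a and runs antisense into Scn9a, sharing exon bases with it. It had 2.68, 3.14, 3.17, 3.27, 3.43 and 3.76 CPM in BALB/c sham libraries and 1.25, 1.33, 1.59 and 1.91 CPM after BALB/c SNI. In B10.D2 it had 2.08, 2.18, 2.21, 2.96 and 3.28 CPM after sham surgery and 0.70, 0.89, 0.96, 1.03 and 1.18 CPM after SNI. No SNI library reached a sham library of its strain. Gm13629 fell by 1.11 in BALB/c (SE 0.15, adjusted p = 3.3e-05 by edgeR) and by 1.36 in B10.D2 (SE 0.15, adjusted p = 1.2e-05), beside -0.14 and -0.02 for its sense gene Scn9a and -0.57 and -0.45 for its neighbour Scn1a. Between the sham groups Gm13629 was also called, lower in B10.D2 by 0.39 (SE 0.13, adjusted p = 0.035 by edgeR).

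Of the 4 LncRNAs at Scn10a and Scn11a, 3 differed between the sham groups of the strains, against 21.6% of all features. None of the 4 was called after SNI. These loci were picked out after the values were seen. At the loci of the other members, Gm13629 was called between the sham groups as well. The other LncRNAs tested there were not (adjusted p 0.17 to 0.93 by edgeR). LncRNA1947 lies on the strand of Scn10a, 1001 bases beyond its downstream end. The authors left a margin around annotated genes out of their assembly, and LncRNA1947 lies at the edge of that margin. The paper allows that some assembled LncRNAs are unannotated extensions of known genes. Whether LncRNA1947 is one was not tested. LncRNA1947 had 124.8 to 171.9 CPM in BALB/c sham and 83.8 to 111.7 CPM in B10.D2 sham libraries. The log2 difference was -0.59 (SE 0.082, adjusted p = 1.2e-05 by edgeR). LncRNA5774, antisense to Scn11a with shared exon bases, had 2.33 to 4.11 CPM in BALB/c sham and 4.10 to 6.82 CPM in B10.D2 sham libraries, a difference of 0.64 (SE 0.13, adjusted p = 7.3e-04 by edgeR). LncRNA1950, on the strand of Scn11a, had 1.82 to 2.73 and 3.60 to 4.69 CPM, a difference of 0.80 (SE 0.13, adjusted p = 8.1e-05 by edgeR). LncRNA5868, which overlaps Scn11a on its strand, differed by 0.11 between the strains (adjusted p = 0.70 by edgeR). The 3 that were called stood beside strain differences of -0.09 for Scn10a and 0.09 for Scn11a, neither of them called. In rat no search by coordinates was made. LncRNA2066, which the study pairs with Scn1a, was low in rat and did not pass the filter on low counts.

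**Figure D5:**
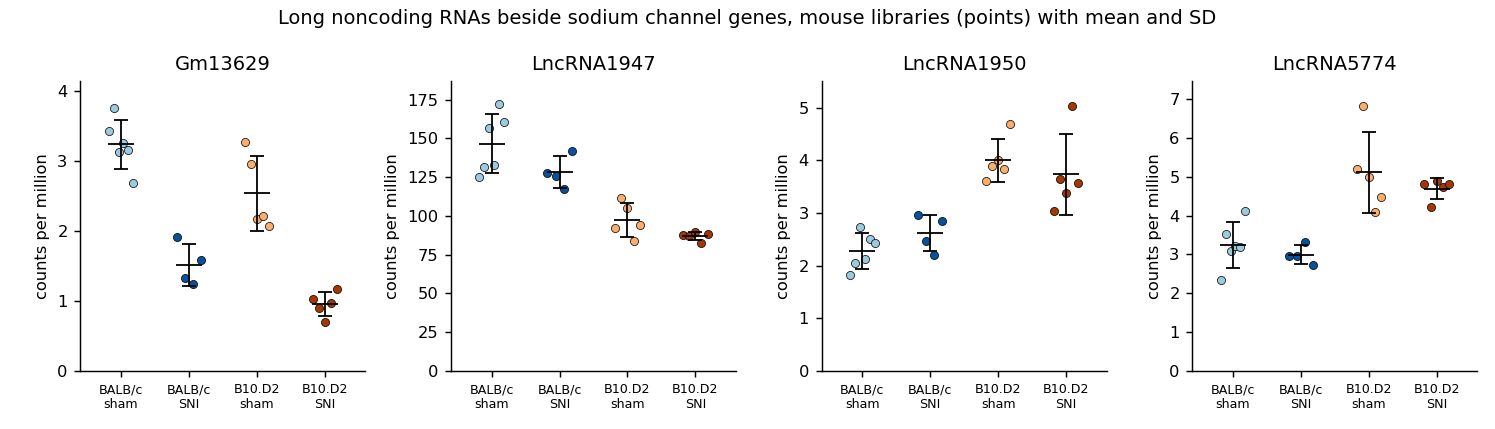
Level of 4 LncRNAs at the members' loci in every mouse library (CPM, vertical axes from 0) in the 4 groups; points are libraries, and the bar with whiskers is the mean with its SD. Gm13629 is lower after SNI in both strains, and its sham mean is lower in B10.D2 than in BALB/c. LncRNA1947, LncRNA1950 and LncRNA5774 differ between BALB/c and B10.D2 with little change after SNI.

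For each member, the genes with the most similar course over the 20 mouse libraries were found among 14407 genes with a mean of 1 CPM or more, by the root mean square difference of centred log2(CPM + 1) values. The libraries share depth, strain and injury, so likeness describes these libraries. Scn1a was nearest to Vamp1 (0.064), Frmpd4 (0.066) and Oprl1 (0.070), and its own SD over the libraries was 0.28. Vamp1, a vesicle protein of the synaptic release machinery, went from 380 to 251 CPM in BALB/c and from 360 to 255 CPM in B10.D2. Scn8a was nearest to Syt2 (0.074), Syt3 (0.094) and Nat8l (0.094), the former pair encoding synaptotagmins. Scn10a was nearest to Amigo1 (0.048), D130043K22Rik (0.055) and Arfgef3 (0.060), Scn11a to Plxnc1 (0.051), Ptprm (0.062) and Acly (0.063), and Scn9a to Dock11 (0.059), Abca5 (0.060) and Pgm2l1 (0.061). Scn2a was nearest to Snap29 (0.050), Cep170 (0.051) and Ocrl (0.054), and Scn3a to Isoc1 (0.125), Atp2b4 (0.127) and Hoxd8 (0.128). The nearest genes of Scn3a were thus farther from it than those of any other member.

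The deposited mouse splice junctions, kept by the authors by read support and given without read numbers, covered the annotated introns of the members to different extents. Scn10a had 43 junctions, of which 26 matched an annotated intron exactly and 12 joined 2 annotated ends in a pair that is not annotated, the highest number of such pairs among the members. Scn11a had 40, with 26 exact and 10 that had 1 annotated end. Scn1a had 32, of which 27 were exact, and Scn8a 35, of which 29 were exact. Without read numbers the use of these junctions in sham and injured ganglia could not be compared.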

How the data were processed

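Paired-end reads of strand-marked libraries were aligned by the authors to mm10 or rn6 (STAR), and HTSeq gave the number of read pairs for each annotated gene and each LncRNA they had assembled. The deposited values are these raw counts. The deposited result tables, which hold the authors' fold changes and adjusted p-values, were used for gene symbols alone, and the deposited junction coordinates for the splice junctions. Of 30 labelled samples, 28 were used; sham mouse 59 (B10.D2) and SNI mouse 66 (BALB/c) were not analysed here. Totals were 29989963 to 41881331 counts in mouse and 11954612 to 17887909 in rat.

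Counts were tested with edgeR 4.0.16 in R 4.3.3 (quasi-likelihood F test, TMM, filterByExpr), as sex plus strain by condition over 20 mouse libraries (24685 features) and as condition over 8 rat libraries (13690 features), the designs of the study. Benjamini-Hochberg adjustment was over all features tested. Fits were run on simulated counts with the same spread for every feature and no outlying library. The rat libraries differ from that setting, so the simulation does not bear on the rat values. Alternatives were DESeq2 1.42.0, other scalings and filters, fits without sex or by strain, a replicate block in rat, and leaving out each library. Rat genes listed at 0 in every library were taken as not counted. The members and the lists of other genes were chosen with earlier results of these data known. Named were all members and, of each list and of the LncRNAs, up to 2 called genes that rose most and 2 that fell most in each injury comparison, plus the 3 genes most alike each member. Syt1 and Cntn1 in rat, Gm13595, LncRNA410, LncRNA1947, LncRNA1950, LncRNA5774 and LncRNA2066 fall outside this rule and were named after their values were seen. Some genes of the lists and 1 sequence are not reported here.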

Additional observations from a re-analysis of the deposited data

Results flagged for a closer look

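Among 42 combinations of a member and a group of 4 to 6 libraries, 3 had 1 library far from the others of its group, where chance gives about 1 in 20. All 3 were in rat. Scn11a had 182.4 CPM in SNT library 1, against 10.3 to 38.9 CPM in the other SNT libraries. Scn3a had 78.4 CPM in sham library 4, against 48.8 to 52.8 CPM in the other sham libraries. These are the 2 libraries that lay between the groups on the first principal component. Scn2a had 55.1 CPM in sham library 1, against 46.5 to 47.7 CPM in the other sham libraries, and sham library 1 did not stand apart on that component.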

How the results depend on the processing

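Of 3771 pairs of a result and an alternative, 3431 kept their direction and side of the threshold, 12 gained a call, 66 counts or shares moved, 30 values changed sign, and the rest kept their direction and lost the call. Every value that changed sign was an uncalled one near 0, and the cause of these changes was not tested. With library totals alone, Scn9a in B10.D2 was 0.0069 and Scn10a between the sexes 0.0057; with scaling to the pan-neuronal markers, Scn9a in B10.D2 was 0.030, Scn10a and Scn9a between the sexes 0.078 and 0.061, Scn1a between strains after SNI -0.0002181 and LncRNA2840 between sham strains -0.030. Scn10a between strains after SNI was 0.0029 with no low count filter and 0.0020 with at least 10 counts in every library. Leaving out 1 library gave -0.050 to 0.017 for Scn9a and -0.017 to 0.063 for Scn11a in B10.D2, -0.024 to 0.035 for Scn10a and -0.099 to 0.029 for Scn8a between strains after SNI, -0.043 to 0.0079 for Scn10a between the sexes, -0.068 to 0.083 for LncRNA2840 between sham strains and -0.19 to 0.0039 for LncRNA5774 in B10.D2. It left 1 to 2 members called in B10.D2, 3 to 7 in rat, 0 to 3 between strains after SNI and 0 to 1 between the sexes; 1 member was called between the sexes with DESeq2 (Scn1a) and 1 with pan-neuronal scaling (Scn2a). Of the 32 other sodium channel complex genes, it left 7 to 14 called in BALB/c, 2 to 8 in B10.D2 and 2 to 9 in rat (10 without both sham library 4 and SNT library 1), and of the A-fibre markers 3 to 7 in B10.D2 and 3 to 6 in rat. The complex genes called in B10.D2 were 5 with library totals and 2 with pan-neuronal scaling. The tetrodotoxin-resistant share in BALB/c sham was 62.3% with the longest transcript. Rat sham and SNT titles share numbers, but same-numbered libraries did not deviate together (correlations 0.05, -0.31, -0.13 and -0.11), so the numbers were not taken as pairs. With the replicate block, 6 rat members were called, Scn10a being lost (-2.73, adjusted p = 0.051 by edgeR), and 2 complex genes, with Map1b (0.13), Scn4b (0.088) and Fgf13 (0.057) among those lost. Mouse numbers are unique to an animal. The rat sizes rest on 4 pooled libraries a group, with sham library 4 and SNT library 1 between the groups.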
